A study of Mus musculus with 12 samples.

Results

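The regions described here are the weaker sites at which the progesterone receptor (PR) had a peak in both Y541S libraries and in neither wild-type library, and at which the estrogen receptor ERα had no peak in any library. They were found by merging all overlapping peaks of 8 deposited peak lists into regions, with an overlap of at least 1 bp. An autosomal region was kept if it held a PR peak in both Y541S lists, none in the 2 wild-type PR lists and none in the 4 ERα lists, and if its highest −log10 p was below 10 in at least one of the Y541S PR lists. This left 6391 members among 314966 autosomal regions, or 2.03%, and 507 further regions were alike except that they reached 10 in both lists (strong regions). The members were thus chosen by the presence of peaks and their −log10 p in the PR contrast itself, so their strength and their absence from wild type are descriptions, and no test was made.

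The libraries came from ChIP-seq of whole mammary glands of mice kept to 8 weeks of age. One genotype was wild type for Esr1, the gene of ERα (WT), and the other carried the Y541S change in Esr1, and the labels do not say whether 1 or both alleles carried it. Mice of both genotypes had received implants of estradiol (E2) and progesterone (P4), with glands taken 4 days later, so both groups shared the hormone treatment and no group without hormone was part of the comparison. Each receptor was precipitated in 2 biological replicates per genotype, the number of animals in each is not given, and the D542G libraries were not analysed here. The series title speaks of luminal cells and the sample labels of whole glands, which also hold basal, fat, stromal and blood-derived cells. In such bulk chromatin, fewer cells that carry a bound site and less binding per cell cannot be told apart, and peak positions do not allow the tissue or the genotype to be checked.

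PR is a nuclear receptor that binds DNA as a dimer once progesterone is bound, at palindromic elements that it shares with the glucocorticoid receptor. In the mammary gland PR is found in the hormone-sensing luminal cells, where ERα drives transcription of Pgr, the gene of PR, and where progesterone acts on neighbouring cells through secreted factors such as RANKL and WNT4. Y541S in the mouse corresponds to a substitution at a tyrosine of the ligand-binding domain that recurs in endocrine-resistant human breast cancer and is known to make ERα active without hormone.

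Sequence could be shown for the members at gene starts, for which RefSeq promoter windows of GRCm38.p6, the assembly equivalent to mm10, were at hand (250 bases before to 50 after a start). Both Y541S summits of 47 members lay within such windows, 50 windows in all, of which 35 were of coding genes. The 250 bases before the start are printed for 6 windows, which were picked once these members were known, 5′ to 3′ on the strand of the gene, in lower case. Capitals mark the core of the progesterone and glucocorticoid response element, ACANNNTGT, or the hexamer TGTTCT that forms one arm of it, on either strand. Crybb3 and Epb41 are shown as the best-ranked coding genes, Gm31555 as the best-ranked window with the core and Gse1 as the coding gene with the core. E2f3 and Muc16 were chosen after their values were seen, to show a start rich in CG and one with no CG dinucleotide.
Crybb3 (chr5:113081585-113081834, minus strand): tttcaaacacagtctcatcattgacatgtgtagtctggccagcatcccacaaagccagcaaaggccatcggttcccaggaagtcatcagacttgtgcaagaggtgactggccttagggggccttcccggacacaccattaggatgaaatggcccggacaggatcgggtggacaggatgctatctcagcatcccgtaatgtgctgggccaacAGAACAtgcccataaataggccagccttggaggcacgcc
Epb41 (chr4:132049079-132049328, minus strand): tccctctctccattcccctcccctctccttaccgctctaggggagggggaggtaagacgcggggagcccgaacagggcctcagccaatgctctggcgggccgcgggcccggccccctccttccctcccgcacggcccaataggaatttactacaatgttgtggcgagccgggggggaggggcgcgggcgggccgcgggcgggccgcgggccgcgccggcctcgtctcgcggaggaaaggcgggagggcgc
Gm31555 (chr5:17571685-17571934, minus strand): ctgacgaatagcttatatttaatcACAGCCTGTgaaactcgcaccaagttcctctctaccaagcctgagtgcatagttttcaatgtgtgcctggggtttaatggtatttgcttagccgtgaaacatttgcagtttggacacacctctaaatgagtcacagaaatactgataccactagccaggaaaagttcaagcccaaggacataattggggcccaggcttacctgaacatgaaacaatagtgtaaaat
Gse1 (chr8:120535607-120535856, plus strand): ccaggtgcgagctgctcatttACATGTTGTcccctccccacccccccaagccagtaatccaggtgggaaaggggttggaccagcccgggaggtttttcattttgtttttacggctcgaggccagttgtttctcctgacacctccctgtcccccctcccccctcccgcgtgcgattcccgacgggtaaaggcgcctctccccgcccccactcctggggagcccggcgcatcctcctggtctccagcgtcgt
E2f3 (chr13:29984392-29984641, minus strand): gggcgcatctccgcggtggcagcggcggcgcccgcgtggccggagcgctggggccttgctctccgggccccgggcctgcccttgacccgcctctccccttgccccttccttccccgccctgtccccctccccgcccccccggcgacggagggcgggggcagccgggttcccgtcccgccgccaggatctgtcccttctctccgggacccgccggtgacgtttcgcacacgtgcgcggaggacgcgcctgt
Muc16 (chr9:18674604-18674853, minus strand): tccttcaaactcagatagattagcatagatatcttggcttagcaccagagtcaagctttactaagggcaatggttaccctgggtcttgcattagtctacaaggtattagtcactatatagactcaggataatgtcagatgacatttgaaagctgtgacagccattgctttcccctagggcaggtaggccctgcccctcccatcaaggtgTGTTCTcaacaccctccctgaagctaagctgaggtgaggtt

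Crybb3, which encodes a crystallin of the eye lens, had a fold enrichment at its start of 6.75 in Y541S replicate 1 and 4.01 in replicate 2, and TGTTCT stood on the strand opposite to the gene at bases 212 to 217. At Epb41, encoding a protein of the membrane skeleton, the fold was 6.12 and 5.59 in replicates 1 and 2, with 73.6% G and C and neither of these motifs. Gm31555, a long non-coding RNA, had folds of 6.93 and 4.39 and the core at bases 25 to 33, whereas the summits lay at bases 156 and 55. Gse1 had the lowest folds of the set, 2.67 and 2.88, with the core at bases 22 to 30 and the summits at bases 72 and 69.

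The E2f3 start, of a transcription factor of the cell cycle, held 78% G and C with 33 CG dinucleotides and had folds of 3.33 and 4.46. Muc16, a cell-surface mucin, held 46.4% G and C, no CG dinucleotide and 1 hexamer, at bases 210 to 215, with folds of 4.35 and 4.26. The peak at Muc16 was 25826 bp from the closest WT PR peak and 25665 bp from the closest ERα peak, while the Gse1 peak was 706 bp and 212 bp from them. The set therefore ran from starts rich in CG to starts without it. Of the 35 coding windows with both summits, 1 held the core, beside 6.9% of all autosomal windows. The non-coding windows of Gm31555, 4930434B07Rik and Gm34991 held it as well.

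Members overlapped 114 promoter windows, of 111 genes, and these windows did not hold the core more often than windows at large. Any overlap counted, and both summits lay inside for 50 of these windows. The search covered the window, so part of a peak could lie outside the sequence searched, and the shares describe windows rather than peaks. The core was present in 7 of 114, or 6.14% (95% Wilson interval 3.01 to 12.1%), beside 6.9% of all 31396 windows of the autosomes other than chromosome 18. In windows of PR regions found in all 4 PR lists without an ERα peak, 17 of 125 held it, or 13.6% (8.67 to 20.7%). For weaker regions of both Y541S lists without an ERα peak, the share was 6.31% with a peak in 1 WT list, close to the members. With a peak in both WT lists it was 14%. The hexamer TGTTCT was in 24.6% of the members' windows, in 19% of all windows and in 35.2% of those of the 4-list regions (27.4 to 43.9%). Weaker regions with a peak in 1 WT list had it in 23.4% of windows and those with both in 24.6%. The estrogen response element core TCANNNTGA stood at 8.77% against 7.61% of all windows. These motifs were searched on both strands, TGTTCT can overlap a core, and a match is a run of letters, not a bound site.

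Among motifs of other factors, AP-1 (TGANTCA) was in 14.9% of the members' windows (9.52 to 22.6%) and in 7.84% of all windows, and the forkhead motif TGTTTAC in 7.89% (4.21 to 14.3%) and 3.71%. TTGGCA, one arm of the NF1 motif, was in 21.1% and 14.1%. Windows of the 4-list regions had AP-1 in 17.6%, forkhead in 8% and TTGGCA in 19.2%, so such shares were not particular to the members. Weaker regions with a peak in both WT lists, which are part of the 4-list regions, had them in 14%, 5.26% and 21.1%. For weaker regions with a peak in 1 WT list the shares were 9.91%, 3.6% and 20.7%. There AP-1 and forkhead were nearer to all windows than to the members. The GATA motif AGATAA was in 6.14% of the members' windows (3.01 to 12.1%) against 11.2% of all windows. STAT5 (TTCNNNGAA) was in 4.39% (1.89 to 9.86%) against 8.35%. Both intervals covered the share of all windows. GATA and STAT5 stood at 9.91% and 7.21% with a peak in 1 WT list, 15.8% and 14% with both, and 16.8% and 8% in the 4-list regions. The members' windows had a median of 53.3% G and C, beside 53% for all windows. Intervals throughout cover counting error only, and windows of 1 member can overlap. Differences between sets of windows were not tested.

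The peak lists held 64488 to 113695 peaks per library, each with a fold enrichment at its summit over a local expectation and a −log10 p. PR lists were longer in Y541S (113695 and 101382 for replicates 1 and 2) than in WT (82982 and 93491), and only 51% and 67.5% of the Y541S peaks fell below 10 against 81.3% and 76.3% of the WT peaks. The expected background coverage, recovered from fold and p, was 2.45 and 1.35 in the Y541S PR lists and 2.68 and 0.927 in the WT PR lists. Over that background the lowest summit in a list had a coverage of 7 and 5 in Y541S and of 7 and 4 in WT. The part that the differences in peak strength and background coverage played in the number of members was not tested. Counts from lists of equal length are given with the reverse rule.

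In the opposite direction the same rule gave few regions. There were 582 weaker WT-only PR regions without an ERα peak, or 0.185% of autosomal regions. Of 15314 weaker PR regions found in both Y541S lists without an ERα peak, the members were the 41.7% that had no WT peak, while 7.08% of 8226 weaker regions of both WT lists had no Y541S peak. The size of the difference between the directions changed with the peak threshold, with list length and with the requirement for 2 replicates. Peaks with a −log10 q of at least 1.3 gave 7484 regions against 349 in reverse, and peaks with a −log10 p of at least 3 gave 6662 against 498. With each list reduced to its 64488 strongest peaks, 2756 regions met the rule and 627 met the reverse one. When a single replicate number was used on both sides, replicate 1 gave 30570 members and 25276 reverse regions, and replicate 2 gave 29981 and 28012. Without WT replicate 1 or 2 of PR, members numbered 8485 or 9789 and the reverse rule gave 18834 or 23067, as the WT side then needed a single list. Without Y541S replicate 1 or 2 of PR the counts were 22064 or 21652 and the reverse counts 2104 or 707.

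Presence in WT followed the strength in Y541S. Regions with the lower of their Y541S −log10 p values from 3 to 5 had no WT PR peak in 53.3% of 5859 cases, a peak in 1 WT list in 32.8% and in both in 13.9%. From 5 to 10 the shares were 34%, 36.9% and 29.1% of 9172 regions. Above the limit they continued down, with no WT peak in 10.9% of 4345 regions from 10 to 20 and in 1.62% of 1978 regions at 20 or more. The share without a WT peak thus went on falling beyond the limit of 10. Seen from WT, 11.4% of 3678 regions from 3 to 5 and 1.53% of 4188 from 5 to 10 had no Y541S peak, and at 20 or more it was 0 of 473 (upper Wilson bound 0.806%). Where a weaker region had a peak in just 1 WT list, it was in replicate 2 in 61.6% of 5401 cases and in replicate 1 in 38.4%.

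**Figure D1:**
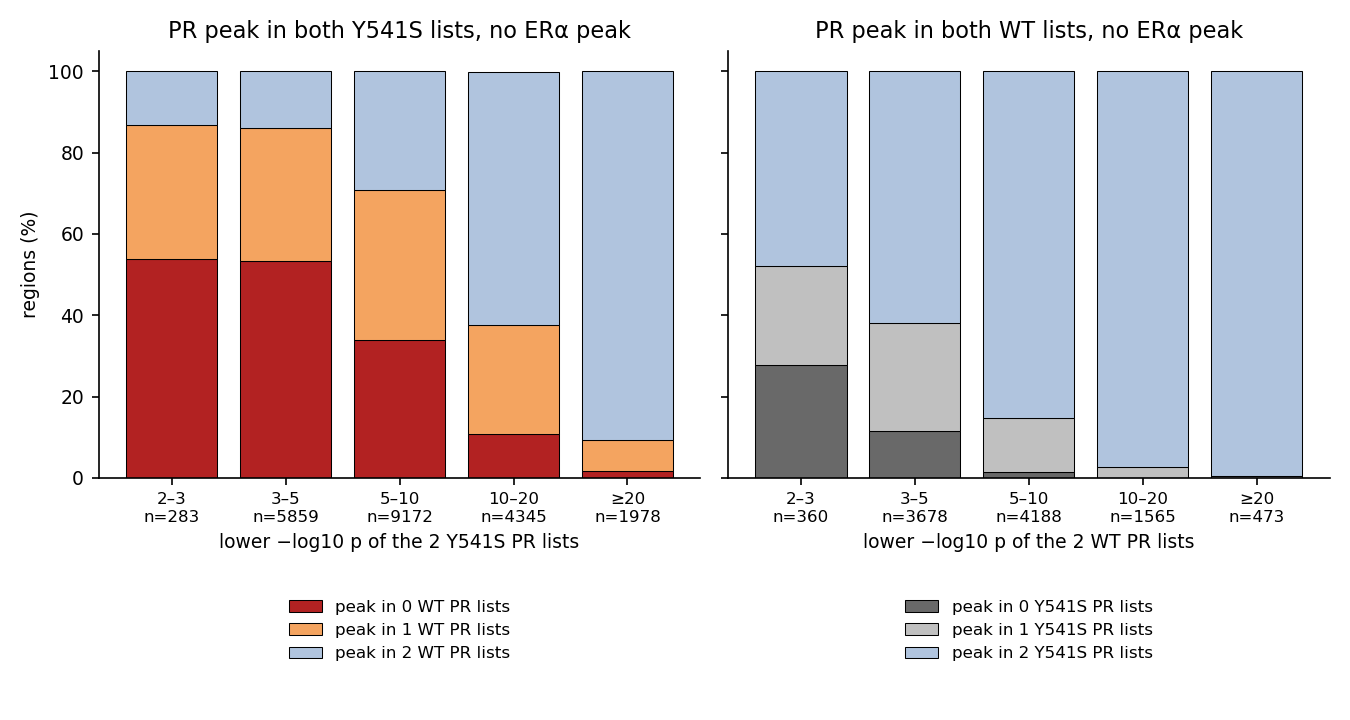
Share of PR regions without an ERα peak (%, stacked bars) with a peak in 0, 1 or 2 PR lists of the other genotype, by the lower −log10 p of their own genotype's 2 lists. The share with none falls from 53.3% to 1.62% between 3 to 5 and 20 or more in Y541S (left), and from 11.4% to 0 of 473 regions in WT (right).

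In Y541S the members were modest peaks with a low count of fragments under them. Their median fold enrichment was 4.24 in replicate 1 (1.82 to 16.6) and 3.83 in replicate 2 (1.93 to 15.3). The median −log10 p was 8.06 (2.43 to 65.9) and 5.72 (2.07 to 40.2), which placed the median member at 58.5% and 61.8% of the list counted from the strongest peak. The median coverage at the summit was 17 in replicate 1 (7 to 83) and 10 in replicate 2 (5 to 40), over median expectations of 2.58 and 1.44. Even so, 5861 members, or 91.7%, reached a −log10 q of 1.3 in both lists. For comparison, the strong regions had median summit coverages of 30 and 18, and PR regions of all 4 PR lists without an ERα peak had 46 and 18.

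The name weaker held in full for 4009 members (62.7%), which were below 10 in both lists. Another 2132 (33.4%) were below 10 only in replicate 2, the list with the lower background coverage, and 250 (3.91%) only in replicate 1. The −log10 p was higher in replicate 1 for 74.3% of members and the fold for 60.5%. At the limit, the members closest to it were 1 at Pdlim2, with 18.4 and 9.97 in replicates 1 and 2, 1 near Mef2d, with 11.4 and 9.96, and 1 near Sox9, with 50.3 and 9.96. Just outside were regions near Rassf10, with 10.7 and 10, near Lpcat1, with 21.8 and 10, and near Yeats4, with 17.3 and 10. Replicate 2 thus set the side of the limit for these 6 regions, and their folds in that list were between 3.32 and 5.96.

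**Figure D2:**
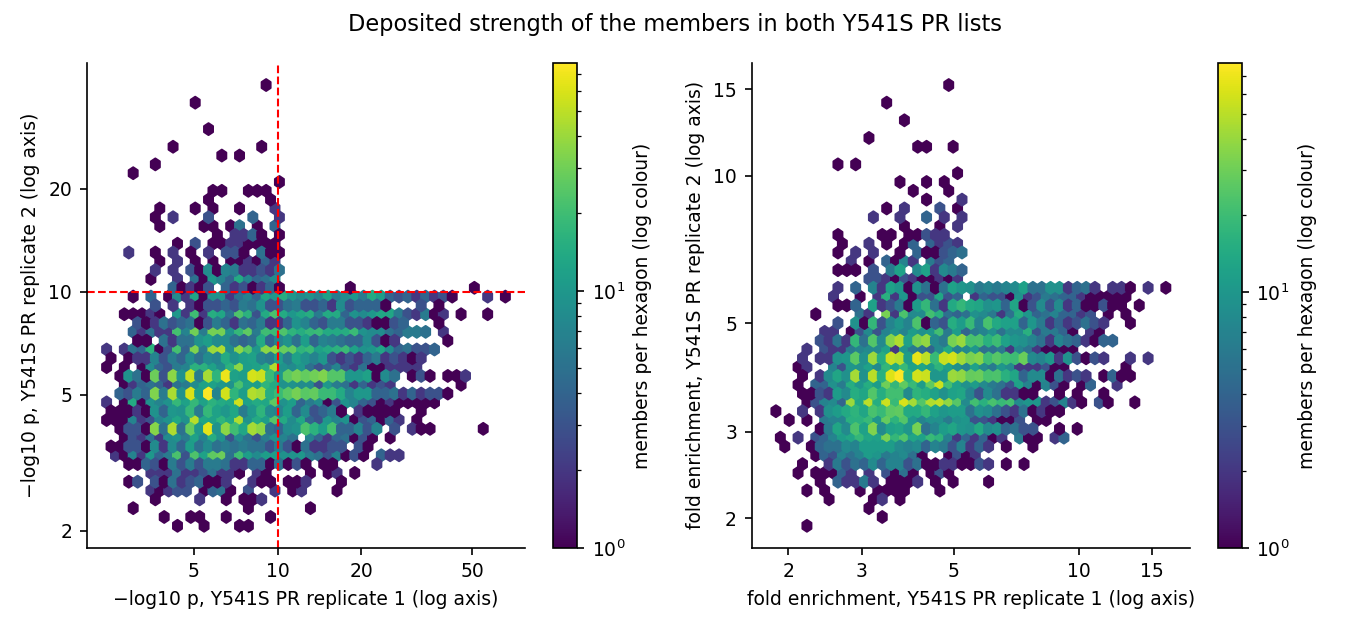
Each hexagon counts members by their −log10 p (left) or fold enrichment (right) in Y541S PR replicate 1 (x) and replicate 2 (y), on log axes, and dashed lines mark the limit of 10. Below both lines lie 4009 members, 2132 lie to the right of the vertical line and 250 above the horizontal one; the empty corner at upper right is the rule itself.

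A member holds peaks of the 2 Y541S PR lists alone, so these overlap by the rule. That overlap limits how far apart their summits can lie. The distance between them had a median of 54 bp, with 47.3% within 50 bp (46.1 to 48.5%) and 97% within 250 bp. Strong regions and the 4-list regions had a median of 32 bp. In classes with WT peaks, a WT peak can also join Y541S peaks that do not overlap. Within bins of the lower −log10 p the medians were closer, although the replicate 1 fold still differed between the classes. From 3 to 5 the median was 65 bp for members, 65 bp for weaker regions with a peak in 1 WT list and 58 bp for those with both. The median replicate 1 fold of these classes was 3.67, 4.26 and 5.55. From 5 to 10 the distances were 45, 44 and 40 bp, with replicate 1 folds of 4.89, 5.33 and 6.79. Members were narrow, with a median width of 372 bp, beside 441 and 502 bp for weaker regions with 1 and 2 WT lists, which also span the WT peaks merged into them.

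Members seldom bordered a WT PR peak, although many WT PR and ERα peaks were found within a few kilobases. The closest WT PR peak was a median of 3600 bp away, with 5.82% of members within 250 bp of one and 19.7% within 1 kb. Strong regions were farther, at a median of 5580 bp. The closest ERα peak of any of the 4 ERα lists was at a median of 2270 bp, with 28.8% of members within 1 kb (27.7 to 29.9%), beside 3340 bp and 23.3% for strong regions and 1300 bp and 41.6% for the weaker WT-only regions. For PR regions of all 4 PR lists without an ERα peak, the median was 2030 bp. The closest region with PR in all 4 lists, here with or without an ERα peak, was a median of 14000 bp from members. It was 10300 bp from weaker regions with a peak in 1 WT list, and 21800 bp from strong regions. Regions with all 8 lists were a median of 53800 bp from members.

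**Figure D3:**
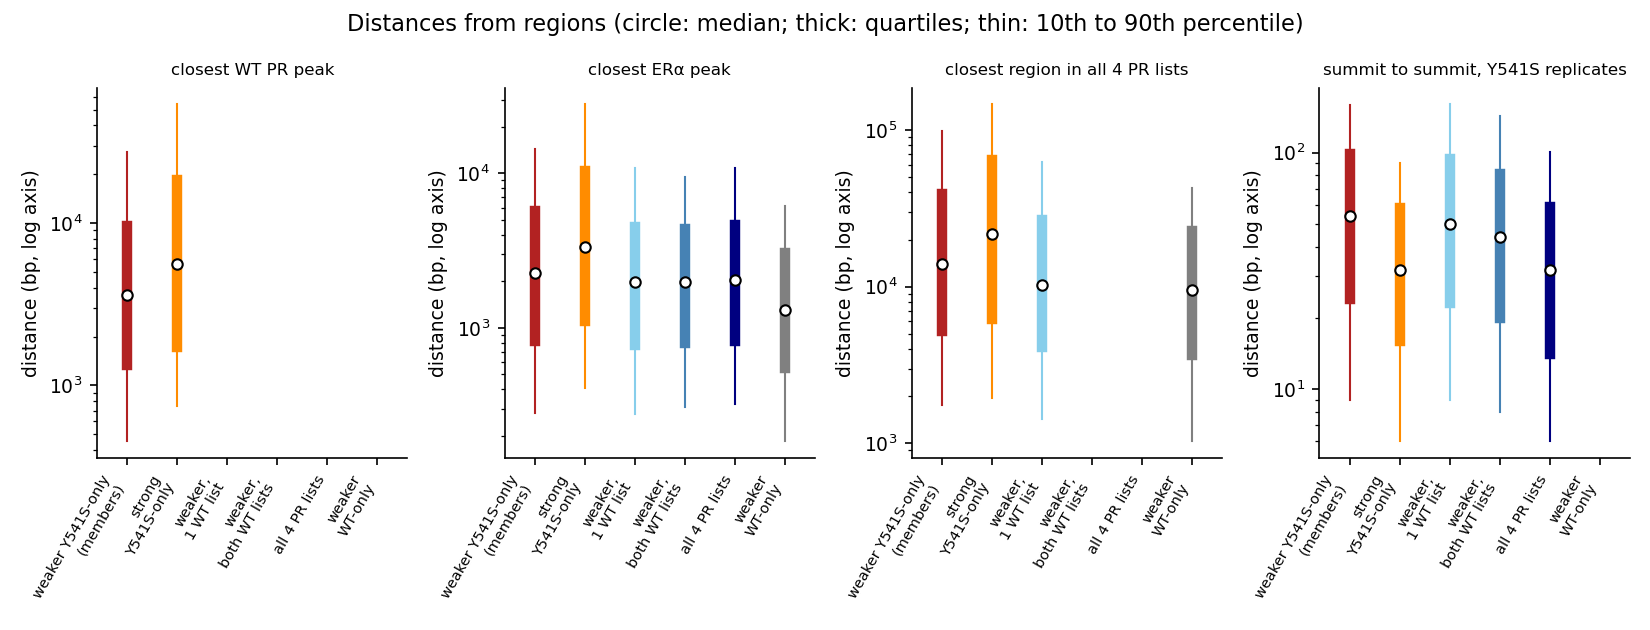
Distances (bp, log axes) from regions of each class to the closest WT PR peak, ERα peak and region in all 4 PR lists (with or without an ERα peak), and between the Y541S summits; circles are medians, thick lines quartiles and thin lines the 10th to 90th percentile. Classes that hold such a peak by definition, or have no Y541S summit pair, are blank; the members' medians are 3600, 2270, 14000 and 54 bp.

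Members were about as often inside as outside coding genes and few were at gene ends. Their midpoints were inside a gene in 49.8% (48.6 to 51%), outside in 45.3% (44.1 to 46.5%) and within 1 kb of either end of a gene in 4.87% (4.37 to 5.42%). Over all autosomal regions the shares were 51.3%, 40.7% and 7.96%. The share at gene ends was lower still in the other Y541S PR classes. It was 2.37% of strong regions and 4.65% and 4.03% of weaker regions with 1 and 2 WT lists. The 4-list regions, which include the weaker ones with 2 WT lists, stood at 3.64%. The share outside genes was 42.5% for weaker regions with a peak in 1 WT list, 40.3% for those in both (38.7 to 41.9%) and 37.1% for the weaker WT-only regions (33.3 to 41.1%). Strong regions had the highest share outside, 56.4% (52.1 to 60.7%). Members thus lay between the strong Y541S-only regions and the regions shared with WT. With the lower −log10 p from 5 to 10, 46.5% of members were outside genes, and 43.1% and 40.6% of regions with 1 and 2 WT lists, whose replicate 1 folds were higher. More than 100 kb from any coding gene were 13.8% of members, 21.7% of strong regions and 6.19% of the weaker WT-only regions. Exonic and intronic positions could not be distinguished here. The classes come from the same libraries, so these differences were not tested.

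**Figure D4:**
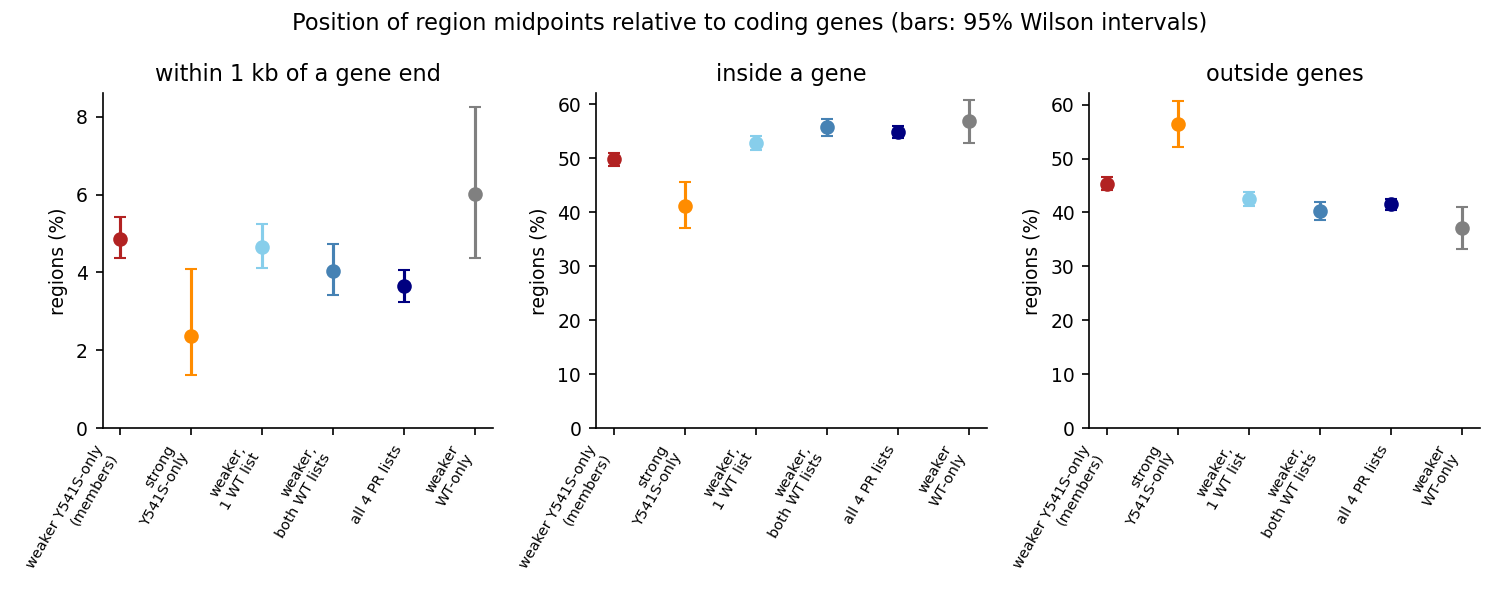
Share of region midpoints (%, points with 95% Wilson intervals) within 1 kb of a coding gene end, inside a gene or outside genes, for members and 5 comparison classes. Members, at 45.3% outside genes, sit between strong Y541S-only regions at 56.4% and weaker Y541S regions that also have a peak in both WT lists at 40.3%.

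Members were spread over all autosomes, with 172 on chromosome 19 to 487 on chromosome 1. They were 1.76% (chromosome 17) to 2.36% (chromosome 3) of the regions of a chromosome. The median gap to the next member was 81.8 kb, and 104 members (1.63%) had another within 1 kb, 636 (9.95%) within 10 kb and 2307 (36.1%) within 50 kb.

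By the rule a member is below 10 in at least 1 list, so the best mean ranks tend to fall on members high in the other. Below 10 in replicate 2 alone were 2132 members, and in replicate 1 alone 250. The 8 members with the best mean rank over both Y541S lists were accordingly strong in replicate 1 and near the limit in replicate 2. The first lay inside Itga9, an integrin subunit (chr9:118631665-118632167), with a fold of 16.6 in replicate 1 and 5.97 in replicate 2, a summit coverage of 69 and 13, and summits 4 bp apart. Its closest ERα peak was 699 bp away and its closest WT PR peak 1945 bp. The second was 268 kb from Klf6, a zinc-finger transcription factor, with folds of 15 and 5.97 and summits on the same base, and the third 163 kb from Sox9, a transcription factor of mammary progenitor cells, with 12.6 and 5.71.

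Inside Rab31, a small GTPase of vesicle traffic, the member had folds of 14.6 and 5.97. Inside Dnah7b, an axonemal dynein chain, they were 12.5 and 5.97, and there the closest ERα peak was 90751 bp away. Atp2b2, the calcium pump that moves calcium into milk, held a member with 14.1 and 5.54. Slc9a3r1, a scaffold protein of the apical membrane, held one with 9.31 and 5.04, and the last of the 8 was 162 kb from Sema3a, a secreted semaphorin, with 12.4 and 5.97. In all 8 the replicate 1 fold was the higher, and 3 of them lay over 100 kb from the gene named.

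At gene ends, the 4 best-ranked members were at Fam20b, Phgdh, Kif26a and Neurl3. At Fam20b, a kinase of proteoglycan synthesis, the folds were 8.89 and 4.62 in replicates 1 and 2. Phgdh encodes the first enzyme of serine synthesis, and its member had 7.86 and 4.88, with a WT PR peak 208 bp and an ERα peak 483 bp away. Kif26a, a kinesin-like protein, had 9.65 and 5.05, and Neurl3, a ubiquitin ligase, 7.73 and 5.07. Of these 4, the Phgdh site was the one with a WT PR peak within 1 kb.

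Esr1, Pgr, Greb1 and Wnt4 had members near them, and Areg and Tnfsf11 did not. Background for such links was high, since 7449 of 20665 autosomal coding genes (36.0%) had a member within 50 kb of their span. Esr1, the gene of ERα, held 4 members inside its 393.6 kb, among 23 PR regions of both Y541S lists. The strongest of them, chr10:4934525-4934871, had folds of 10.2 and 5.11 in replicates 1 and 2, and the others had 4.93 and 2.98, 3.04 and 2.85, and 3.48 and 6.82. The order of the replicates was thus not the same at each Esr1 site. The first of the other three, chr10:4683786-4684104, was 107 bp from a WT PR peak and 82 bp from an ERα peak, and the strongest was 24828 bp from the closest WT PR peak.

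Pgr held 1 member, chr9:8906072-8906342, with folds of 3.69 and 4.66 in replicates 1 and 2 and summits 4 bp apart. Greb1, an ERα target gene and cofactor, had 1 inside, with 3.78 and 2.9, and 1 at 38.7 kb from it, with 5.43 and 4.59. The latter was closer to E2f6, at 13.3 kb. Wnt4, the secreted progesterone effector, had 2 within 50 kb and none inside, with 3.48 and 2.71, and 3.69 and 3.21. The second of these lay inside Cdc42. Some of these sites were below a −log10 q of 1.3 in replicate 2. They were the first Wnt4 member (1.11), the Greb1 member inside the gene (1.24) and the Esr1 member chr10:4683786-4684104 (1.29). Areg, the amphiregulin gene, had 6 PR regions of both Y541S lists within 50 kb and Tnfsf11, the gene of RANKL, had 11, and none of these was a member. At none of these 6 genes were members more than 4 of the PR regions that both Y541S libraries held.

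The genes with most members inside were long. Arhgef28, a guanine nucleotide exchange factor, held 8 in 308.1 kb, with 1 more within 50 kb. Over these 9 the fold ran from 3.12 to 7.83 in replicate 1 and from 2.66 to 4.81 in replicate 2, and 29 PR regions of both Y541S lists lay in the same reach. Aopep (an aminopeptidase), Opcml (a cell adhesion molecule) and Ptprk (a receptor tyrosine phosphatase) held 7 each, and Ext1 (heparan sulfate synthesis), Foxp1 (a forkhead factor), Rbms3 (an RNA-binding protein) and Stk39 (a kinase of ion transport) held 6 each. At Ptprk the fold ran from 2.67 to 8.99 and from 2.59 to 5.54, and at Foxp1 from 2.48 to 6.28 and from 3.28 to 5.11.

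There were 23 genes with 5 or more members inside, with a median span of 523 kb, beside 17.5 kb for all coding genes. Per Mb of span, Nrp1, a coreceptor of semaphorins and VEGF, led these 23 with 34 (5 members in 146.9 kb), followed by Anks1, an ankyrin-repeat adaptor, with 32.6, Daam1, a formin of Wnt signaling, with 31, Arhgef28 with 26, Stk39 with 22.9 and Tcf12, a helix-loop-helix factor, with 22.4. The 5 members of Nrp1 had folds of 3.06 to 6.67 in replicate 1 and 2.84 to 6.15 in replicate 2, and 16 PR regions of both Y541S lists lay within 50 kb of the gene. No reverse region lay within 50 kb of Arhgef28, Stk39 or Anks1, and 1 lay there for Nrp1, Daam1 and Tcf12. Reverse regions were few, and 5.43% of all autosomal coding genes had one within 50 kb.

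Of 134 autosomal genes on 10 lists of hormone response, cell type and cofactor genes, 63 (47%) had a member within 50 kb, beside the 36.0% of all coding genes. Within 10 kb it was 35 (26.1%) beside 17.6%. The number of PR regions of both Y541S lists within 50 kb also differed. Its median was 6 over all coding genes and ran from 5 in the immune list to 13 in the cofactor list. The part of this density in the shares was not tested. The median number of members per gene was 0 over all coding genes, 1 in the lists of progestin and glucocorticoid response, hormone-sensing luminal and basal genes, 0.5 in the fibroblast and endothelial list and 0 in the other lists. As a yardstick for the lists, of all links between PR regions of both Y541S lists and coding genes, 7.46% were members. Some genes are on more than 1 list, and Mt1 with Mt2, Krt8 with Krt18 and Pdgfrb with Csf1r are neighbours that share a region. A member linked to a list gene can also lie inside, or closer to, another gene.

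Among progesterone paracrine and PR target genes, 5 of 11 had a member (45.5%, 21.3 to 72%), and members were 7 of 65 linked PR regions (10.8%). Adamts18, a protease of the extracellular matrix, had 2 of its 6, the better at 16.6 kb with folds of 6.09 and 3.83 in replicates 1 and 2 and no WT PR peak within 55473 bp. Id4, an inhibitor of helix-loop-helix factors, had 1 of 2, at 48.6 kb, with 7.54 and 5.97. Ccnd1, the cyclin D1 gene, had 1 of 7, with 5.71 and 4.52, and Rspo1, a Wnt agonist, 1 of 5, at 2.3 kb, with 5.83 and 4.82.

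Of the progestin and glucocorticoid response genes, 11 of 19 had one (57.9%, 36.3 to 76.9%), and 18 of 248 linked PR regions were members (7.26%). Dusp1, a phosphatase of MAP kinases, had 3 of 11, the best with 5.29 and 3.41 in replicates 1 and 2. Fkbp4, a cochaperone of steroid receptors, had 3 of 8, the best inside the gene with 2.51 and 3.97 and a −log10 q of 1.04 in replicate 1. Zbtb16, a zinc-finger factor induced by progestins, had 2 of 34, the better with 5.03 and 5.43. Among estrogen response genes it was 8 of 18, with 14 of 177 linked regions (7.91%). Rara, a retinoic acid receptor, had 3 of 17, the best with 4.78 and 3.31, and Nrip1, a corepressor, 2 of 15, the better with 5.1 and 4.29.

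The list of hormone-sensing luminal genes had the highest share, 9 of 12 (75%, 46.8 to 91.1%), with 17 of 135 linked PR regions (12.6%). Besides Esr1 and Pgr, Prom1, a surface marker of these cells, had 3 of 9, the best at 11.8 kb with 5.65 and 4.26. Both summits of that member lay in the promoter window of Fgfbp1. Krt8, a luminal keratin, had 2 of 17, the better with 3.3 and 4.3, and Prlr, the prolactin receptor, 2 of 17, the better inside the gene with 4.76 and 4.19. Gata3, a luminal transcription factor, had 2 of 6, with folds of 4.23 and 2.87 and of 2.68 and 3.45. The first of these had a −log10 q of 1.29 in replicate 2. Foxa1, a pioneer factor of hormone receptors, had 1 of 10, with 2.63 and 2.87. Luminal progenitor and alveolar genes had a member in 5 of 15, with 5 of 115 linked regions (4.35%). Examples are Cd14, at 29.4 kb with 5.31 and 3.28, Ltf, lactoferrin, at 1.69 kb with 5.53 and 3.67, and Ehf, an ETS factor, at 44.5 kb with 4.35 and 3.82.

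Genes of the other cell types were linked as well. For basal and myoepithelial genes the count was 8 of 14 (57.1%, 32.6 to 78.6%), with 12 of 108 linked regions (11.1%). Mylk, the myosin light chain kinase of contractile cells, had 4 of 19, the best inside the gene with folds of 8.12 and 5.54. These 4 include a member inside Ccdc14 and another inside Hacd2. Snai2, a transcription factor of basal cells, had 1 of 2, at 48 kb, with 9.28 and 5.54, and Tagln, an actin-binding protein, 2 of 15, the better with 5.37 and 4.08. Adipocyte genes had one in 2 of 11, and 2 of 92 linked regions (2.17%), at Lep, leptin, with 3.77 and 6.39, and at Fabp4, a fatty acid carrier, with 4.35 and 3.83.

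Fibroblast and endothelial genes stood at 6 of 12 with 8 of 86 linked regions (9.3%). Dcn, decorin, had 2 of 7, the better at 4.62 and 7.49, Vwf 2 of 14, the better at 3.78 and 3.89, and Cdh5 1 of 5, at 4.35 and 5.54. Immune genes stood at 5 of 11 with 7 of 64 (10.9%). Cd3e had 2 of 9, the better at 3.17 and 4.63, Itgam 2 of 5, the better at 6.38 and 3.41, and Ptprc, the CD45 gene, 1 of 5, at 4.34 and 3.78. Nuclear receptor cofactors and partner factors stood at 7 of 15 with 10 of 224 (4.46%), with Nfib, an NF1 factor, at 7.92 and 3.29 and Ncoa2, a coactivator, at 3.7 and 3.44. The range of these shares, 2.17% to 12.6%, includes the 7.46% of all coding genes, each list rests on at most 18 members, and what the lists' cell types contributed to the signal was not tested.

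**Figure D5:**
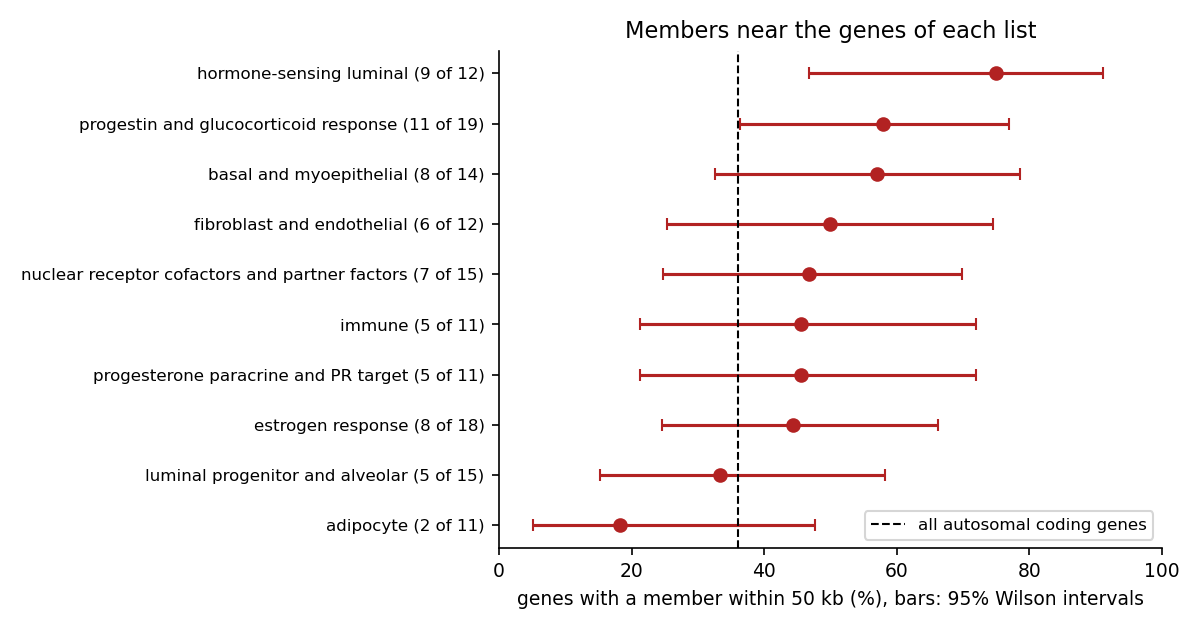
Share of the autosomal genes of each list (%, points with 95% Wilson intervals) with a member within 50 kb, and the 36.0% of all autosomal coding genes (dashed line). Points run from 18.2% for adipocyte genes to 75% for hormone-sensing luminal genes, and 8 of the 10 intervals cover the line.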

How the data were processed

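Chromatin of minced, fixed whole glands, sheared to between 300 and 500 bp, was precipitated with antibodies against ERα or PR, per the labels' protocols. Build mm10 is named in the submitters' processing notes. Aligner, peak caller and any use of input DNA are not given in the sources used here. The authors deposited 1 list of peaks per library, each peak with a score, a fold enrichment (a ratio), a −log10 p and a −log10 q; none of the −log10 p was below 2. These values are the authors' and served for description, ranks and filters inside a list. Lists were not scaled to each other, so values of different lists set side by side describe those lists and measure no change.

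Peaks were merged into regions with python 3.11.15, numpy 2.4.6, pandas 2.3.3 and scipy 1.17.1. Coverage at the summit and its Poisson expectation were solved from fold and −log10 p (tolerance 1e-04 on −log10 p), which worked for at least 99.9956% of each list, and the solver was tested on simulated data. Background coverage is the 0.001 quantile of that expectation. Genes are the 20665 autosomal coding genes of a RefSeq table of GRCm38.p6, linked to regions whose midpoint was within 50 kb of the span. Shares carry 95% Wilson intervals, with no p-value, as the rule used the contrast.

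The members and the 10 lists (142 entries, 137 genes, of which those on sex chromosomes were not counted) were chosen with earlier results of these data known. Named were the 8 members ranked best over both Y541S lists, 3 on each side of the limit, the 4 best at gene ends, up to 3 genes per list with most members, the 8 genes with most members inside, the 6 with most per Mb among genes with at least 5, and the hormone genes Wnt4, Tnfsf11, Areg, Greb1, Pgr and Esr1. Ccnd1, Rspo1, Prlr and Foxa1 were added after their values were seen. Alternatives changed the peak threshold, list length, overlap, limit, gene windows and libraries.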

Additional observations from a re-analysis of the deposited data

How the results depend on the processing

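The 6391 members became 2756 in equally long lists, 3277 with a limit of 5 and 4009 when both lists had to be below 10. Within replicate 1 only there were 30570 and within replicate 2 only 29981. Leaving out 1 library at a time gave 6681 to 22064. No paired analysis was possible because the results come from no test, and the labels tie a replicate number to no shared batch or day. Stricter peaks, summit windows, a 250 bp margin and a limit of 20 stayed within 1.5 times of the count. A gene end window of 5 kb gave 17.1% at ends, 43% inside and 39.9% outside, and a link of 10 kb left 35 list genes. Strength without replicate 1 or 2 of Y541S PR ran from 5.72 to 8.06 for the median −log10 p, 3.83 to 4.24 for the fold and 58.5 to 61.8 for the percent rank. Lists without counts of reads limit depth to what the recovered coverage shows, and a site missing from a list may hold signal below its threshold.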
